A study of Mus musculus with 12 samples.

Results

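The 37 cardiac genes described here were looked up by symbol among the 38986 genes listed in each library, and all 37 were found. They comprised 7 heart-restricted genes, 14 contractile and calcium-handling genes that skeletal muscle also uses, 12 regulators of heart formation, and 4 ion transport genes that neurons also use. The genes were followed in teratomas, tumours that pluripotent cells form when injected into an immunodeficient mouse and that hold tissues of several germ layers. R1 mouse embryonic stem (ES) cells carrying a lentiviral vector with a CAG promoter were grown in serum-LIF medium, and 5000000 cells were injected under the skin of 8-week-old male NOD-PrkdcEM1 mice. The vector was empty (ET) or carried WT Dnmt3L, or Dnmt3L with the acetylation-site mutation K238R or K412R. Transduced cells were selected with puromycin and kept as stable lines, and teratomas were collected at day 21. Each of the 4 groups had 3 teratomas with 1 library each, and total estimated counts lay between 16957677 and 18546100 per library. Host and graft were both mouse, so transcripts of the host could not be separated from those of the graft.

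Dnmt3l, the gene carried by the vectors, was read first as a check of the labels. Its CPM (counts scaled to a library total of 1000000) was 2.22, 0.649 and 7.62 in ET, 165, 203 and 204 in WT, and 38.9, 38.3 and 26.0 in K412R. It was 1.89, 1.11 and 0.543 in the K238R group, within or below the range of ET, so these are called the libraries labelled K238R, and their values are given under the K238R label. Tissue markers were mixed in all groups. The summed CPM of 16 neuronal genes ranged from 2785 to 4892 over the 12 libraries, and that of 31 skeletal muscle genes from 62.1 to 4686. Skeletal muscle genes summed to 505 to 829 CPM for ET, 618 to 4686 for WT, 62.1 to 1735 under the K238R label and 564 to 663 for K412R. On this measure WT replicates 2 and 3 and replicate 3 of the libraries labelled K238R stood apart from the other 9.

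Cardiac muscle forms from mesoderm under T-box, GATA and NK2-type transcription factors, and bone morphogenetic protein (BMP) signals take part in its induction. Beating cardiomyocytes are then marked by their own forms of myosin, troponin and natriuretic peptides. Many other cardiac proteins are not particular to the heart: fetal skeletal muscle makes cardiac actin and cardiac troponin T, and slow skeletal muscle shares the ventricular myosin chains. Several regulators also act elsewhere, the GATA factors in endoderm and Tbx20 and the Islet factors in motor neurons. For this reason the heart-restricted genes were read separately from the shared ones.

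Promoters of genes from both classes are printed as examples of the motif letters counted over all promoters further on, each as the 150 bases before the transcription start in the gene's direction, taken from RefSeq on GRCm38.p6. The following 3 belong to heart-restricted genes that stayed near 0, and capitals mark GATAA on either strand, the core letters that GATA factors recognise.
Nppa (chr4:148000572-148000721, plus strand): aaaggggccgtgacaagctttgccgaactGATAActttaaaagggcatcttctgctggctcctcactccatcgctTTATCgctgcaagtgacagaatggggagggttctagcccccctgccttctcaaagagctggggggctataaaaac
Nppb (chr4:147985750-147985899, plus strand): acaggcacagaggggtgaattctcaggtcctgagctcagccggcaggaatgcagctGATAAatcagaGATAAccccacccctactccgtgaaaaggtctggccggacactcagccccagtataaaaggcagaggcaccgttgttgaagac
Myl7 (chr11:5898783-5898932, minus strand): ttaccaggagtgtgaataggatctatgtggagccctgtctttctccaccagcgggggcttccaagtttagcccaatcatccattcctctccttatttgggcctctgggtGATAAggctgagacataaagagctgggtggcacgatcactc

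The next 2 belong to Actc1 and Tnnt2, shared genes that are given in every library further on, and capitals mark CArG boxes, the serum response factor element, and CANNTG, the E-box letters that myogenic factors recognise. Tnnt2 has another start in the table, at chr1:135836839-135836988 for the same 150 bases, with 0 of these motifs, and it is not printed.
Actc1 (chr2:114052876-114053025, minus strand): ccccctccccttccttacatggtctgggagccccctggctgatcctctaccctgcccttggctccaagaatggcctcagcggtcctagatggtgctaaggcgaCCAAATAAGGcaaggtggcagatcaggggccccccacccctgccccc
Tnnt2 (chr1:135836184-135836333, plus strand): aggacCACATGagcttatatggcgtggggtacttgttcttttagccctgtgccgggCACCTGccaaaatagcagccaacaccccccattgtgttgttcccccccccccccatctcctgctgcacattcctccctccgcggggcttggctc

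RefSeq promoter windows of 300 bases, 250 before to 50 after the start, were matched for 30 of the 37 genes, and some genes had more than 1 start, giving 34 windows. GATAA occurred in the windows of 6 of the 7 heart-restricted genes, all but Myh6, or 85.7% against 25.4% of all 32851 promoters. It occurred in 33.3% of the 15 windows of shared genes and in 12.5% of the 8 windows of regulators. A CArG box occurred in 4 of the 34 windows, those of Actc1, Myl3, Myl7 and Mesp1, or 11.8% against 1.63% of all promoters. CANNTG is common, and occurred in 85.3% of the windows against 72.3% of all promoters, with 85.7% for heart-restricted and 93.3% for shared genes. The motifs did not separate the classes: the Myl7 window also holds a CArG box, those of Nppa and Nppb hold CANNTG, and a Tnnt2 window holds GATAA. The letters AAGTG were found in 38.2% of the windows against 46.4% of all promoters, and the MEF2 motif in 5.88% against 3.19%. These are matches of letters on both strands, counted as a description, and no binding was measured.

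Most heart-restricted genes were close to undetected in all groups. Of the 7, Myl7, Mybpc3, Nppa, Nppb and Bmp10 did not pass the filter on low counts and were not tested. Nppa, the atrial natriuretic peptide, had the highest of these levels, with 0.398, 0.531 and 0.0556 CPM for ET, 0.112, 0.335 and 0.285 for WT, 0.216, 0.333 and 0.543 under the K238R label and 0.501, 0.113 and 0.786 for K412R. The ranges of the 4 groups overlapped, and the highest library held 14 counts. Nppb, the related B-type peptide, peaked at 0.390 CPM and was at 0 in 3 libraries. The atrial light chain Myl7 peaked at 0.431 CPM, and Mybpc3, the cardiac myosin-binding protein, at 0.226 CPM. Bmp10, a BMP of the trabeculated myocardium, was at 0 in 10 of 12 libraries. A count of 0 allows up to 3 counts, or 0.162 to 0.177 CPM at these depths, counting error only. Nkx2-5, the homeobox factor of cardiac progenitors, was read with them after its values were seen. It had at most 6 counts in a library. Its counts summed to 8 for ET, 9 for WT, 1 under the K238R label and 0 for K412R. Summed over these 6 genes, chosen with their low values known, the CPM ranged from 0.389 to 1.02 for ET, 0.618 to 1.34 for WT, 0.863 to 1.09 under the K238R label and 0.735 to 1.17 for K412R.

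**Figure D1:**
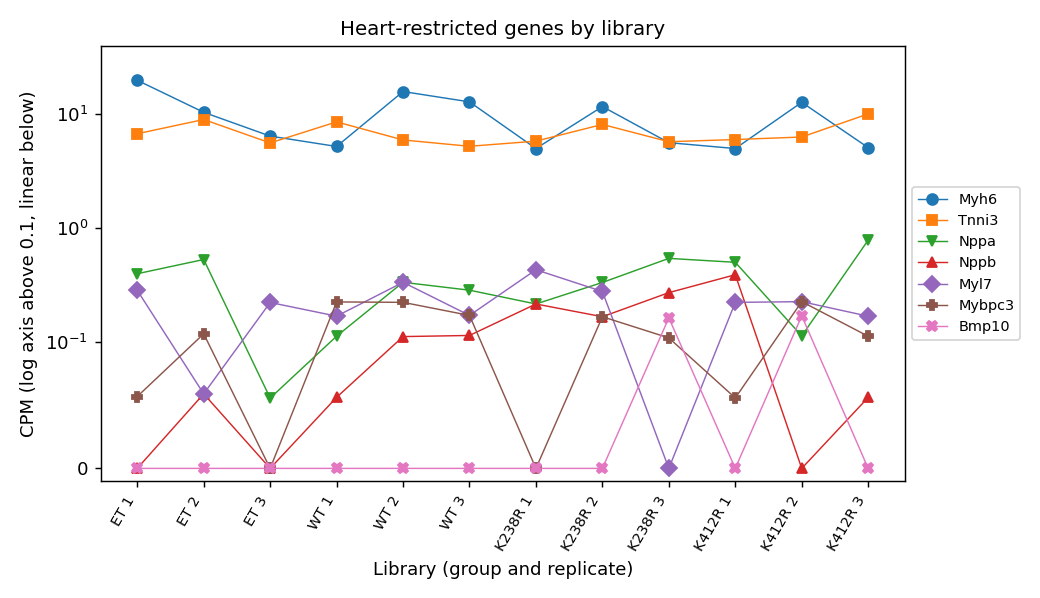
CPM of the 7 heart-restricted genes in each of the 12 libraries, 1 marker per gene, with lines drawn only to follow a gene (axis logarithmic above 0.1 CPM and linear below). Myh6 and Tnni3 lie between 5.01 and 20.0 CPM in all libraries, and the other 5 genes stay below 1 CPM, at most 0.786.

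The remaining heart-restricted genes were Tnni3 and Myh6. Tnni3, cardiac troponin I, was 6.77, 9.02 and 5.62 CPM for ET, 8.60, 5.97 and 5.25 for WT, 5.82, 8.17 and 5.75 under the K238R label and 6.02, 6.33 and 10.1 for K412R. The 4 ranges overlapped, and the highest library was 1.93 times the lowest. Between WT and ET its log2 fold change was -0.09 (standard error 0.26, adjusted p = 0.838, edgeR), and that of K412R against WT was 0.16 (standard error 0.26, adjusted p = 0.735). The sign of both turned when a single library was left out (ranges -0.30 to 0.12 and -0.06 to 0.37), so they have no stable direction. Myh6, the alpha myosin heavy chain of the heart, was 20.0, 10.4 and 6.45 CPM for ET, 5.23, 15.9 and 12.9 for WT, 5.01, 11.72 and 5.65 under the K238R label and 5.01, 12.8 and 5.11 for K412R. It varied within each group and the groups overlapped, with log2 fold changes of -0.07 (standard error 0.54, adjusted p = 0.938) for WT against ET and -0.59 (standard error 0.55, adjusted p = 0.535) for K412R against WT. Leaving out ET replicate 1 gave 0.46 for WT against ET.

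Myh7, the beta myosin heavy chain of ventricle and slow skeletal muscle, lies next to Myh6 in the genome and is nearly identical to it in sequence. It was 68.8, 20.2 and 9.56 CPM for ET, 16.7, 59.3 and 48.3 for WT, 7.98, 21.8 and 7.33 under the K238R label and 8.08, 34.5 and 8.31 for K412R. The 6 libraries highest in Myh6 were also the 6 highest in Myh7, in the same order, beginning with ET replicate 1. The count of Myh6 was 0.267 to 0.770 times that of Myh7, and this ratio was lowest in the 3 libraries richest in Myh7. Reads of such paralogs can be divided between them by the estimation, so the level of Myh6 taken alone is uncertain.

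The genes shared with skeletal muscle differed between teratomas by far more than the heart-restricted ones. Actc1, cardiac alpha-actin and the main actin of fetal muscle, was 52.4, 64.1 and 6.78 CPM for ET, 36.4, 295 and 164 for WT, 10.7, 74.1 and 0.760 under the K238R label and 16.2, 2.15 and 3.70 for K412R. The highest library was 388 times the lowest, WT replicates 2 and 3 were the highest, and all 3 K412R libraries lay below all 3 WT libraries. Acta1 is nearly identical in coding sequence, so part of these reads may belong to it. Tnnt2, cardiac troponin T, was 12.0, 19.6 and 1.56 CPM for ET, 9.56, 38.3 and 28.4 for WT, 3.77, 16.3 and 1.09 under the K238R label and 3.34, 0.678 and 2.02 for K412R. ET and WT overlapped, whereas K412R and WT did not. Csrp3, the muscle LIM protein, was 3.24, 2.71 and 0.222 CPM for ET, 1.69, 15.4 and 8.16 for WT, 7.55, 3.11 and 0.0543 under the K238R label and 1.39, 0.792 and 1.40 for K412R. Again WT replicates 2 and 3 were the highest, and replicate 3 of the libraries labelled K238R, with 1 count, was the lowest.

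The other shared genes showed 3 kinds of range. The fetal light chain Myl4 (2.33 to 86.8 CPM), the calcium-storing calsequestrin Casq2 (2.61 to 49.7) and the slow troponin C Tnnc1 (0.890 to 22.0) were highest in WT replicate 2, as Actc1 was. The ventricular light chains Myl2 (0.0543 to 11.3 CPM) and Myl3 (0.278 to 13.1) were highest in ET replicate 1 and next highest in K412R replicate 2, libraries in which Tnnt2 stood at 12.0 and 0.678 CPM. Ankrd1, a cardiac ankyrin repeat protein, ranged from 0.109 to 11.3 CPM and was highest in replicate 1 of the libraries labelled K238R. The telethonin gene Tcap ranged from 0.109 to 14.3 CPM and sarcolipin, Sln, from 0 to 5.97. Atp2a2, the calcium pump SERCA2 that most tissues express, was the exception at 245 to 346 CPM, a range of 1.41 times. Its partner phospholamban, Pln, had at most 1 count in any library and was not tested.

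**Figure D2:**
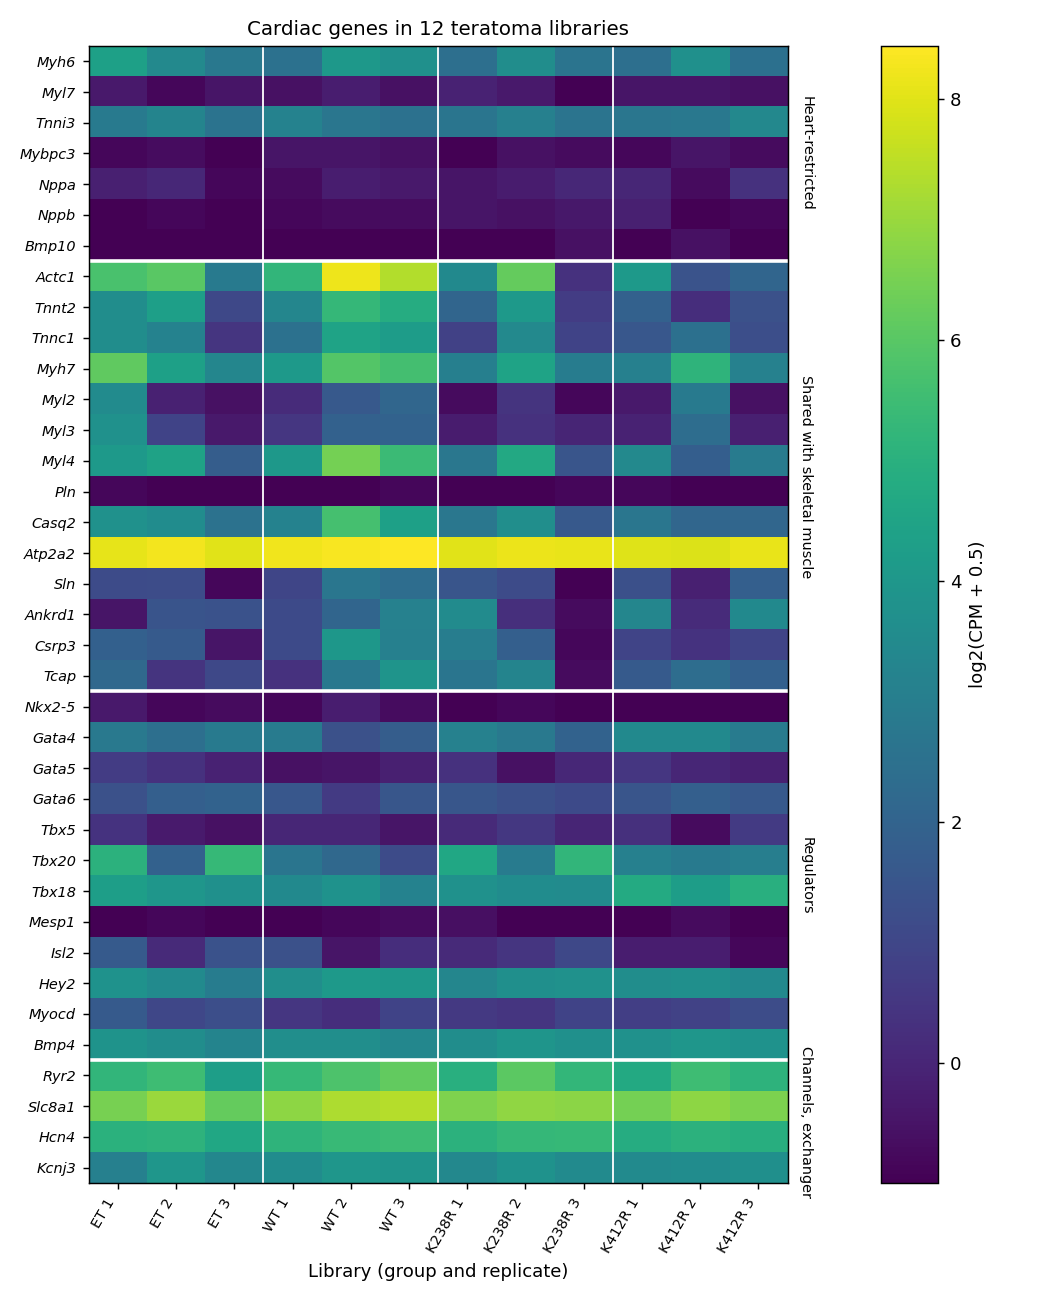
Level of each of the 37 genes (rows, by class) in each library (columns, by group), coloured by log2 of CPM plus 0.5; white lines separate classes and groups. Shared genes such as Actc1, Myl4 and Casq2 are bright in WT replicates 2 and 3 and dark in replicate 3 of the libraries labelled K238R. Actc1 stands there at 295, 164 and 0.760 CPM. Other shared genes differ: Myl2 and Myl3 are brightest in ET replicate 1 and Ankrd1 in replicate 1 of the libraries labelled K238R. Atp2a2 is bright throughout, while Pln and 5 heart-restricted genes are dark throughout.

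Skeletal muscle genes varied over the same libraries. Myh3, the embryonic skeletal myosin, was 116, 138 and 11.68 CPM for ET, 71.8, 599 and 321 for WT, 18.98, 135 and 5.37 under the K238R label and 27.5, 5.82 and 5.61 for K412R. Myog, the myogenic factor of differentiating myoblasts, ranged from 0.217 to 17.6 CPM and was likewise highest in WT replicate 2. The 4 libraries highest in Actc1 were also the 4 highest in Tnnt2 and in Myh3. The mean log2(CPM + 0.5) of the 31 skeletal muscle genes was then set against each gene over the 12 libraries. All 13 shared genes tested had a positive Pearson's r, from 0.38 to 0.90 with a median of 0.82, against a median of -0.12 over all 18374 genes tested. Among them 3 passed an adjusted p of 0.05 by a 2-sided permutation test with 100000 resamples, adjusted over those 18374 genes, of which 0.463% passed. They were Csrp3 (r = 0.90, Spearman's rho = 0.95), Actc1 (r = 0.89, rho = 0.89) and Myl4 (r = 0.87, rho = 0.87). With group means subtracted, r was 0.88, 0.89 and 0.81. Tnnt2, with r = 0.82 and rho = 0.89, did not pass. The class was chosen as genes that skeletal muscle also uses, and the permutation shuffled libraries across groups. With 3 libraries standing apart from the others on this measure, the calls cannot establish a relation, and r is given as a description.

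The relation rested in part on the extreme libraries. Without WT replicate 3 and replicate 3 of the libraries labelled K238R, the 2 farthest from the median, r was 0.89 for Csrp3, 0.83 for Actc1 and 0.87 for Myl4, and none passed (15 of all genes did). Without WT replicate 2 as well, r over the remaining 9 libraries was 0.79, 0.72 and 0.74, and no gene of the whole table passed. The shared genes that followed the skeletal list least were Myl3 (r = 0.38), Myl2 (r = 0.43) and Ankrd1 (r = 0.44), for which r without the 2 farthest libraries was 0.23, 0.18 and 0.00034. Tnni3 had an r of -0.07 and Myh6 of 0.54. The 10 regulators tested lay between -0.65 (Tbx20) and 0.39 (Hey2), and the 4 ion transport genes between 0.38 and 0.58. Without the 2 farthest libraries, the regulators lay between -0.91 (Gata6) and 0.64 (Hey2), with Tbx20 at -0.34. The ion transport genes then lay between 0.50 and 0.79 (Hcn4), and none of either class passed. Over the 9 libraries the ranges were -0.74 (Gata6) to 0.57 (Tbx5), with Tbx20 at -0.11, and 0.23 to 0.70. In bulk samples, more cells of a type and more RNA per cell cannot be told apart. The part of skeletal muscle content in the group differences that follow was not tested.

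**Figure D3:**
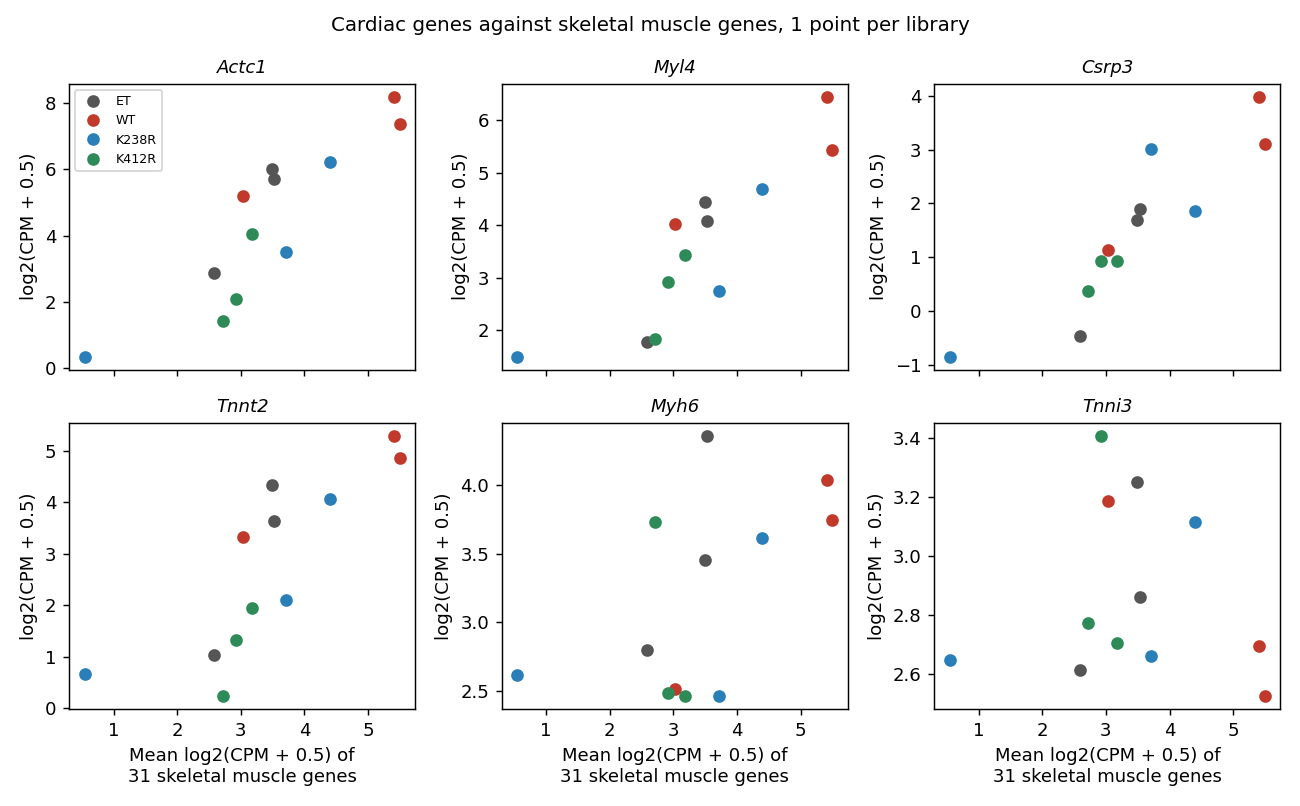
Each panel plots log2(CPM + 0.5) of a cardiac gene against the mean log2(CPM + 0.5) of 31 skeletal muscle genes, 1 point per library coloured by group. Actc1, Myl4, Csrp3 and Tnnt2 climb with the skeletal list (r from 0.82 to 0.90), Myh6 less so (r = 0.54) and Tnni3 does not (r = -0.07).

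WT was then compared with ET to see which cardiac genes differed between these teratomas. The paper gives no number of independently made lines per construct, so line and construct cannot be told apart in any group comparison here. None of the 29 genes tested passed an adjusted p of 0.05 in edgeR's quasi-likelihood test, where 0.0489% of all 18405 genes did. At an unadjusted p of 0.05, 9 passed, or 31.03% of the 29, against 29.1% of all genes. DESeq2 called Tbx20 and Slc8a1, and it called 11% of all genes. With a change of at least 2-fold as well as unadjusted p under 0.05, only Casq2 was higher (3.26% of all genes were) and Gata5, Tbx20 and Myocd were lower (2.76%). The shared genes had a median log2 fold change of 1.42, with 11 of 13 above 0, beside 2.04 for the skeletal muscle list with 31 of 31 above 0 and -0.01 for all genes. Actc1 differed by 2.05 (standard error 1.30, adjusted p = 0.300) and Tnnt2 by 1.25 (standard error 0.94, adjusted p = 0.377), both within the spread of replicates. The regulators had a median of -0.55 and the ion transport genes of 0.52. No call was made without 1 library in 10 of 12 fits, whereas without ET replicate 2 there were 6 (Hcn4, Kcnj3, Atp2a2, Tbx20, Slc8a1 and Myocd) and without WT replicate 1 there was 1 (Slc8a1).

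K412R was compared with WT, and here Tbx18 was the 1 gene of 29 that passed the adjusted threshold, where 2.04% of all genes passed. At an unadjusted p of 0.05, 12 passed against 22.8% of all genes. By the 2-fold criterion 2 were higher, Tbx18 and Gata4 (1.66% of all genes), and 7 were lower, or 24.1% of the 29, against 3.36% of all genes. The 7 were Actc1, Tnnt2, Myl4, Csrp3, Casq2, Tnnc1 and the Islet factor Isl2, so 6 of them belonged to the shared class. Actc1 differed by -4.51 (standard error 1.48, adjusted p = 0.119) and Tnnt2 by -3.68 (standard error 1.07, adjusted p = 0.0889), and neither passed in edgeR. DESeq2 called 7 cardiac genes (Actc1, Tnnt2, Myl4, Casq2 and Atp2a2 lower, Gata4 and Tbx18 higher) and 9.18% of all genes. The shared class had a median of -1.30, with 11 of 13 below 0, beside 0.0097 for all genes. The skeletal muscle list had a median of -2.35 with 31 of 31 below 0, 20 of them by the same 2-fold criterion, and none passed the adjusted threshold in edgeR. Myh6 and Tnni3, the heart-restricted genes tested, stood at -0.59 and 0.16.

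**Figure D4:**
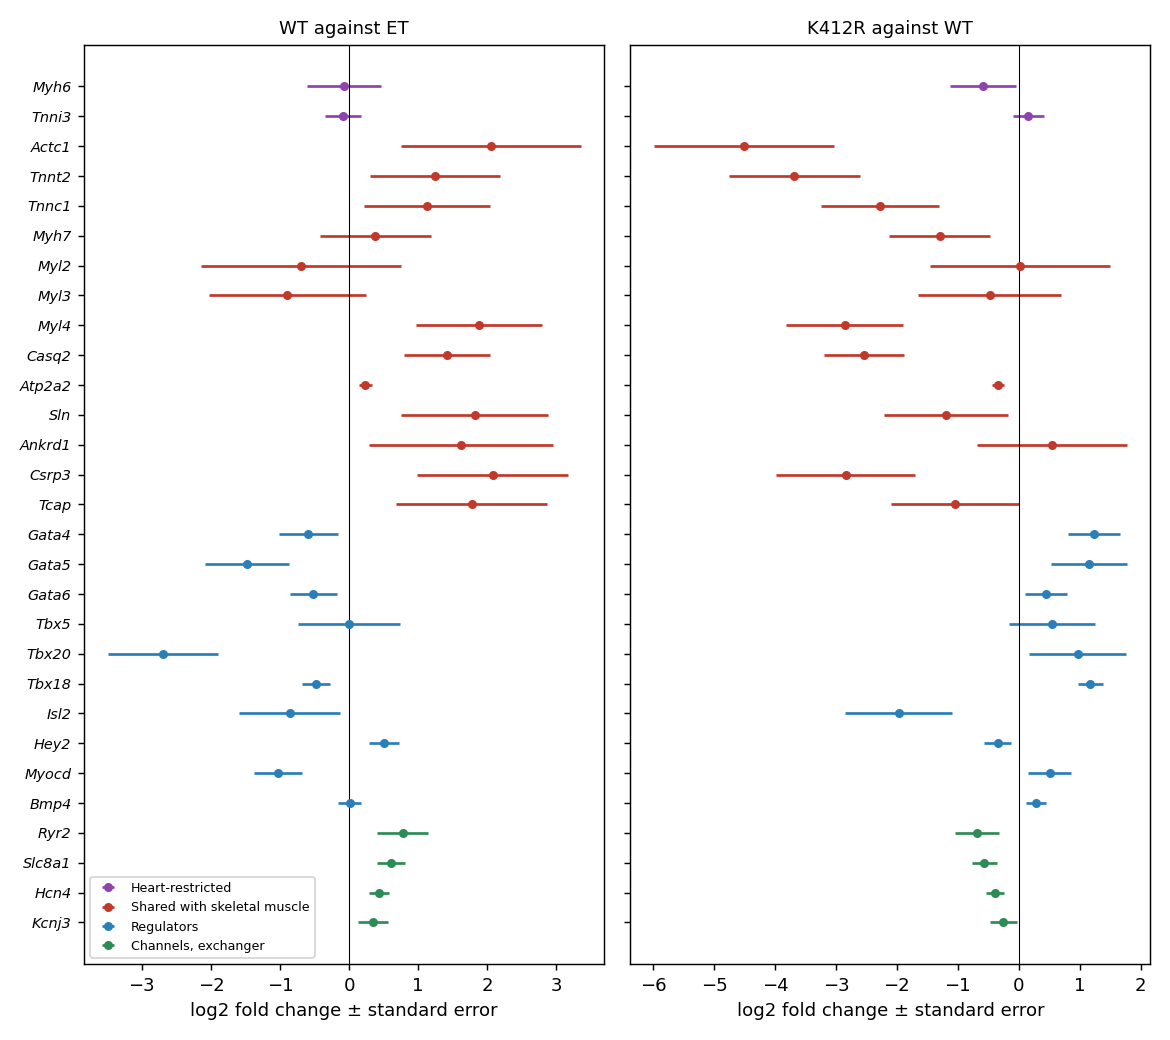
log2 fold change of the 29 genes tested, with standard error bars from edgeR, for WT against ET (left) and K412R against WT (right), coloured by class. Shared genes such as Actc1 stand at 2.05 on the left and -4.51 on the right with long bars, while Tbx18, the only gene past the adjusted threshold, stands at 1.18 on the right; both panels use the same WT libraries, so their opposite signs are not independent.

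Tbx18, a T-box factor of the sinus venosus and epicardium that is also made in other mesenchyme, was 19.05, 15.0 and 13.0 CPM for ET, 10.8, 13.6 and 8.67 for WT, 13.2, 11.6 and 11.3 under the K238R label and 26.7, 18.4 and 30.8 for K412R. K412R lay above WT and above the libraries labelled K238R without overlap, while K412R replicate 2 lay just below ET replicate 1. The mean was 25.3 ± 6.34 CPM (SD, n = 3) in K412R and 11.02 ± 2.47 in WT. The log2 fold change of K412R against WT was 1.18 (standard error 0.20, adjusted p = 0.0208, edgeR). The call was lost without WT replicate 3 (adjusted p = 0.121), K412R replicate 1 (0.0983) or K412R replicate 3 (0.103), and the adjusted p ranged from 2.08e-05 to 0.121 over all alternatives. The comparison of K412R with ET gave 0.70 (standard error 0.20, adjusted p = 0.430). K412R against the libraries labelled K238R gave 1.09 (standard error 0.20, adjusted p = 0.0862). In that last comparison 0 of 29 cardiac genes passed in edgeR, where 0.0217% of all genes did, and 2 (Tbx18 and Isl2) had an unadjusted p under 0.05, as did 11.9% of all genes. DESeq2 called Tbx18 there, among 2.11% of all genes.

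Tbx20, a T-box factor of the heart tube that hindbrain motor neurons also express, was 32.7, 3.30 and 39.5 CPM for ET, 5.85, 4.01 and 1.71 for WT, 24.2, 7.11 and 36.7 under the K238R label and 8.13, 6.95 and 7.69 for K412R. The libraries fell into a high set of 4, namely ET replicates 1 and 3 and replicates 1 and 3 of the libraries labelled K238R, and a low set of 8 at or below 8.13 CPM. The same 4 libraries were the highest in Isl1 (36.3 to 51.4 CPM, the other 8 at most 17.3), an Islet factor of cardiac progenitors and of motor neurons. Since the libraries fell into separate sets, no correlation of Tbx20 with Isl1 or with the neuronal genes is given. The part of neuronal content in Tbx20 was not tested. All libraries labelled K238R and all K412R libraries lay above every WT library, while ET replicate 2 overlapped WT. The log2 fold change against WT was 2.51 under the K238R label (adjusted p = 0.165, edgeR) and 0.97 for K412R (adjusted p = 0.479). Between WT and ET the log2 fold change was -2.69 (standard error 0.80, adjusted p = 0.110, edgeR). Without ET replicate 2, the low ET library, it was -3.20 (adjusted p = 0.00773), and over all alternatives the adjusted p ranged from 0.00773 to 0.402.

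**Figure D5:**
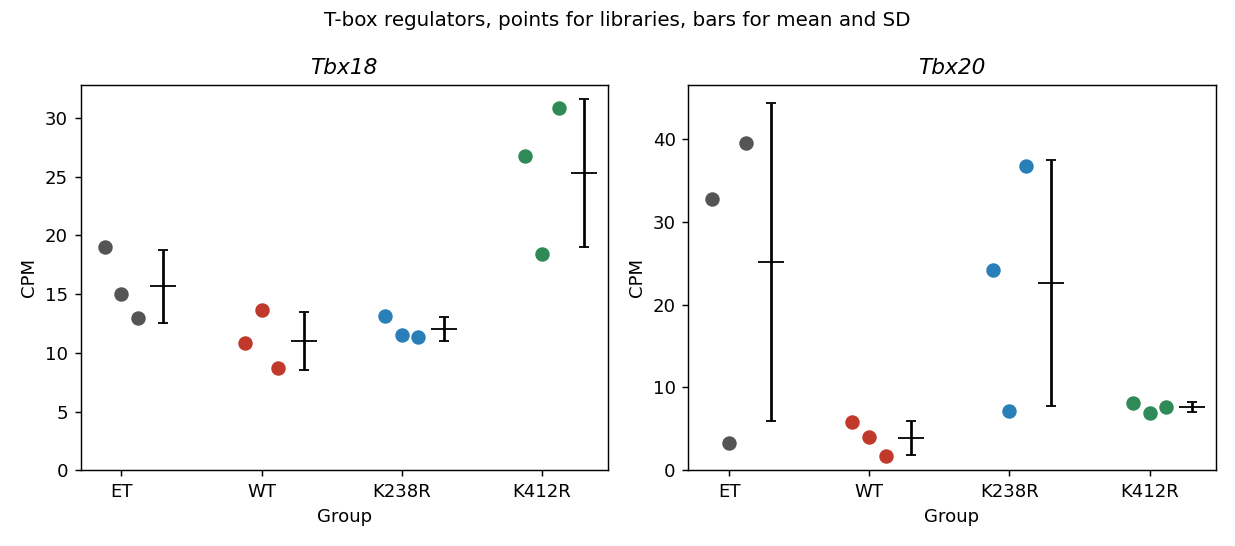
CPM of Tbx18 (left) and Tbx20 (right) by group, with a point per library and a bar for the mean and SD of 3. Tbx18 lies between 18.4 and 30.8 CPM in K412R and between 8.67 and 13.6 in WT, while Tbx20 divides ET and the libraries labelled K238R into high and low libraries.

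Among the other regulators, Bmp4, a signal that induces cardiac mesoderm and many other tissues, was the steadiest. It was 13.8, 11.9 and 9.01 CPM for ET, 12.3, 12.1 and 9.81 for WT, 12.0, 14.7 and 12.9 under the K238R label and 13.1, 15.2 and 13.6 for K412R. Its log2 fold change was 0.01 (standard error 0.16, adjusted p = 0.978) for WT against ET and 0.28 (standard error 0.16, adjusted p = 0.324) for K412R against WT. K412R lay above WT without overlap, though the difference was small and did not pass. Gata5, a GATA factor of endocardium and endoderm, was low, at 1.08, 0.767 and 0.445 CPM for ET, 0.169, 0.223 and 0.399 for WT, 0.755, 0.167 and 0.543 under the K238R label and 0.891, 0.509 and 0.393 for K412R. WT lay below ET without overlap, but at 3 to 19 counts a library, and its log2 fold change of -1.48 (standard error 0.61) did not pass (adjusted p = 0.141). Gata4 ranged from 2.01 to 10.8 CPM and Gata6 from 1.003 to 3.39, both lowest in WT replicate 2. The summed CPM of 11 endoderm genes was 182 to 225 for ET, 89.0 to 140 for WT, 174 to 206 under the K238R label and 195 to 271 for K412R, and its part in the GATA values was not tested.

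The remaining regulators were low or flat. Hey2, a Notch target of the ventricle, ranged from 7.23 to 16.2 CPM, and Myocd, the coactivator of serum response factor in heart and smooth muscle, from 0.669 to 2.73. Myocd was 2.73, 1.53 and 1.89 CPM in ET and 0.899, 0.669 and 1.37 in WT, without overlap (log2 fold change -1.03, standard error 0.35, adjusted p = 0.115). Tbx5, a factor of the first heart field and forelimb, ranged from 0.113 to 1.01 CPM, and Isl2 from 0.0561 to 2.67. Mesp1, the factor of the earliest cardiac mesoderm, had at most 3 counts in a library and was not tested.

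The 4 ion transport genes were present in all libraries, with the highest library between 1.81 (Hcn4) and 3.75 (Ryr2) times the lowest. Ryr2, the calcium release channel of heart and brain, was 36.1, 44.6 and 19.1 CPM for ET, 39.4, 55.0 and 71.7 for WT, 30.1, 66.2 and 37.7 under the K238R label and 26.4, 44.8 and 33.7 for K412R. Groups overlapped, and WT differed from ET by a log2 fold change of 0.77 (standard error 0.36, adjusted p = 0.179). Slc8a1, the sodium-calcium exchanger, was 91.0, 128 and 73.3 CPM for ET, 115, 154 and 166 for WT, 96.5, 118 and 110 under the K238R label and 87.6, 114 and 96.1 for K412R. WT was above K412R without overlap and overlapped ET. Its log2 fold change was 0.60 between WT and ET (standard error 0.20, adjusted p = 0.114) and -0.57 for K412R against WT (standard error 0.20, adjusted p = 0.136). The pacemaker channel Hcn4 ranged from 24.1 to 43.5 CPM and the potassium channel Kcnj3 from 8.13 to 15.2. All 4 had positive differences for WT against ET and negative ones for K412R against WT. The summed CPM of the 16 neuronal genes was 3612 to 3882 for ET, 3478 to 4683 for WT, 4063 to 4892 under the K238R label and 2785 to 3220 for K412R. Its mean was highest under the K238R label (4370, against 4218 for WT, with overlapping ranges), where all 4 genes had negative differences against WT, and its part was not tested.

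The libraries labelled K238R, whose Dnmt3l transcript stood at the level of ET, were set against both controls. Against WT none of the 29 genes passed in edgeR (0.223% of all genes did) or in DESeq2 (4.27%), and 5 had an unadjusted p under 0.05, where 17.5% of all genes did. By the 2-fold criterion Tbx20 was higher (1.67% of all genes) and Myl4 and Casq2 were lower (3.55%). The shared class had a median log2 fold change of -1.83, with 13 of 13 below 0, beside 0.00078 for all genes. Actc1 stood at -2.57 (standard error 1.33, adjusted p = 0.333) and Tnnt2 at -1.89 (standard error 0.96, adjusted p = 0.325), and replicate 2 of these libraries held 74.1 CPM of Actc1 and replicate 3 held 0.760. Against ET none passed in edgeR (0% of all genes) or in DESeq2 (0.0761%), and 2 had an unadjusted p under 0.05 (5.61% of all genes). By the 2-fold criterion none was higher (0.31%) and Myl3 was lower (0.641%).

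K412R against ET likewise gave no call in edgeR (0% of all genes) or in DESeq2 (0.542%). There 4 genes had an unadjusted p under 0.05 (7.91% of all genes), with 0 higher by the 2-fold criterion (0.706%) and Tnnt2, Isl2 and Tbx20 lower (0.864%). Tnnt2 stood at -2.43 (standard error 1.06, adjusted p = 0.617) and Isl2 at -2.83 (standard error 0.86, adjusted p = 0.437). K412R and the libraries labelled K238R were compared with the same ET and WT libraries, so these values share their controls.

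A wider list of 54 genes known from heart muscle, conduction and cardiac development was read in the same way, and 52 were tested. For WT against ET none passed the adjusted threshold in edgeR, 25 had an unadjusted p under 0.05 (48.1% of the 52, against 29.1% of all genes), 11 were higher by the 2-fold criterion (3.26% of all genes) and 4 lower (2.76%). The higher ones included the sarcomere genes Ldb3, Actn2 and Myom1, which skeletal muscle also expresses. They also included the transcription factor Irx4 (mean 0.936 CPM in ET and 2.76 in WT). The lower ones included Isl1 and Hand1. For K412R against WT, 1 passed, Corin, where 2.04% of all genes did. By the 2-fold criterion 14 were lower (3.36% of all genes), again with Ldb3, Actn2, Myom1 and Irx4. Corin, the protease that activates the atrial natriuretic peptide and that is also made outside the heart, was 147, 124 and 157 CPM for ET, 73.8, 50.1 and 29.1 for WT, 180, 108 and 175 under the K238R label and 259, 135 and 239 for K412R. WT lay below every library of the other 3 groups. The log2 fold change of K412R against WT was 2.04 (standard error 0.32, adjusted p = 0.0130, edgeR). The gene of its substrate, Nppa, stayed below 1 CPM in the same libraries, as given above.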

How the data were processed

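RNA from 12 teratomas was sequenced from both ends after poly(A) selection (CORALL kit). The authors used fastp for trimming, STAR for alignment and Salmon for quantification. They deposited 1 table of estimated counts per gene symbol for each library, not normalized and already whole numbers; the submitters' processing notes name GRCm39. The use of molecular identifiers and of strand in counting is not given in the sources used here. Genes from overlapping or near-identical loci may share reads.

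Groups came from the sample titles. Nothing in them says more than that each library was a separate sample, so p-values measure the spread between these teratomas. The p-values do not measure a spread between independently made cell lines. CPM is the count scaled to a library total of 1000000. Group differences were tested with edgeR 4.0.16 (R 4.3.3; TMM scaling, edgeR's filter on low counts, robust quasi-likelihood test, 1 mean per group over all 12 libraries), with Benjamini-Hochberg adjustment over the 18405 genes that passed the filter. A 2-fold change with unadjusted p under 0.05 was counted as a second criterion. The alternatives were DESeq2 1.42.0, which the methods name, RLE scaling, no filter, 2 groups alone, a replicate block, Gm26917 (7.47% to 13.9% of counts) left out, and each library left out. Correlations used log2(CPM + 0.5), and their p-values were adjusted over all genes rather than over the cardiac genes as first planned. The plan was to leave them out if the libraries fell into separate sets on the skeletal measure. They are given here as a description although some libraries stood apart. Both the group tests and the correlations were tested on simulated data. Intervals are given as standard errors, and floors cover counting error only.

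The cardiac genes and the tissue lists were chosen with earlier results of these data known. Values in every library are given for Tnnt2, Tnni3 and Bmp4, which the study stained, for genes past the adjusted threshold, and for the 2 of each class that differed most between WT and ET; Nppa, Myh7, Myocd and the genes outside the cardiac list were described beside them. Promoters of Gata4, Gata6, Tbx5, Myocd, Atp2a2, Sln and Tcap were not analysed here. A gene of the neuronal list is not reported here.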

Additional observations from a re-analysis of the deposited data

How the results depend on the processing

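With 3 libraries a group, a call on a cardiac gene often turned on the tool or on 1 library. For WT against ET, 0 calls became 2 with DESeq2 (Tbx20 and Slc8a1). For K412R against WT, 1 call (Tbx18) became 7 with DESeq2 and 2 with these groups alone (Tnnt2 and Tbx18). For K412R against the libraries labelled K238R, 0 became 1 (Tbx18) with DESeq2 and with these groups alone. By the 2-fold criterion, 1 gene for the libraries labelled K238R against ET became 2 with DESeq2, and 3 for K412R against ET became 5 in the 2 groups alone. Other settings of scaling and filtering kept each count within 1.5 times; the causes were not tested.

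With 1 library left out at a time, adjusted calls ranged from 0 to 6 for WT against ET, 0 to 1 for the libraries labelled K238R against WT (1, Tbx20, without ET replicate 2), 0 to 4 for K412R against WT, and 0 to 1 for K412R against the libraries labelled K238R (1, Tbx18, without ET replicate 2). K412R against WT gave 4 without WT replicate 1, 2 without ET replicate 2, and 0 without WT replicate 3, K412R replicate 1 or K412R replicate 3. The 2-fold counts ranged from 1 (without WT replicate 2) to 7 (without WT replicate 1) for WT against ET, where 2 were left without ET replicate 1. They ranged from 1 (without WT replicate 2) to 7 (without replicate 2 of the libraries labelled K238R) for those libraries against WT, with 6 without WT replicate 1. They ranged from 0 to 2 for those libraries against ET and from 1 to 5 for K412R against ET, in which 5 came without K412R replicate 2.

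Signs reversed only for differences near 0 and only with 1 library left out: Tnni3 for WT against ET (-0.30 to 0.12), for the libraries labelled K238R against WT (-0.24 to 0.17) and for K412R against WT (-0.061 to 0.37), Bmp4 for WT against ET (-0.13 to 0.15), Tbx18 for the libraries labelled K238R against WT (-0.047 to 0.27), and Myh6 for WT against ET (-0.39 to 0.46). Of 594 alternatives for single cardiac genes, 569 kept their direction and their side of the threshold, 10 gained a call, 3 lost one and 12 reversed. Most were fold changes of the 11 named genes. The rest were r with group means subtracted for Actc1, Myl4 and Csrp3, read by direction only.

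The replicate numbers of the titles were tried as a block. Deviations of same-numbered libraries correlated between -0.36 and 0.32. Libraries with different numbers were not compared, so this check cannot tell whether same-numbered libraries share more than a number. With the replicate block, WT against ET had 1 call (Slc8a1), the 2-fold count fell from 1 to 0 for the libraries labelled K238R against ET and from 3 to 1 for K412R against ET, and the block changed no other adjusted call.

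The correlation with the skeletal muscle list was called for 3 cardiac genes, for 5 with Gm26917 left out, for 0 without the 2 farthest libraries, and for 0 without the 3 libraries that stood apart, a setting chosen after seeing the data. At these depths 1 CPM is 16.96 to 18.55 counts, which limits the 8 genes that were not tested.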
